A study of Mus musculus with 6 samples.

Results

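The genes described here are Nfe2l2, which encodes the transcription factor NRF2, Keap1, which encodes its inhibitor, and 8 genes long known as NRF2 targets: Hmox1, Nqo1, Gclc, Gclm, Txnrd1, Srxn1, Slc7a11 and Gsr. They were taken by symbol from the deposited table, where all 10 were found once each among 30386 genes. Hmox1 was chosen by its CPM in this same comparison, being higher in p63alphaKO, so its group values are given as a description with no test. The other 9 were named as parts of the pathway. Levels were compared in epidermis of the back skin of mouse embryos at E18.5, with 3 libraries of wild type (WT) and 3 of the genotype p63alphaKO, in a study of the isoforms of p63, the master transcription factor of stratified epithelia. No drug or other treatment is named in the labels, and the sources used here do not give strain, sex or how the allele was made. The labels do not say that the libraries of a group came from separate embryos, so the p-values measure only the spread between these libraries.

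NRF2 is made continuously and destroyed almost as fast, because KEAP1 holds it for ubiquitination by a cullin-based ligase. Oxidants and electrophiles modify cysteines of KEAP1, NRF2 then escapes to the nucleus, pairs with small MAF proteins and binds antioxidant response elements, where the repressor BACH1 can also bind. Much of this control acts on protein, so mRNA levels of Nfe2l2 and Keap1 do not report NRF2 activity. Its targets make glutathione, reduce thioredoxin and peroxiredoxins, and break down heme and quinones. In epidermis the pathway is known for guarding suprabasal keratinocytes against oxidative and chemical stress.

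Reads came from the 3' ends of mRNAs, and each level is a count scaled to its library's total (CPM). The libraries held between 2564407 and 4474764 reads, so that 10 CPM stood for 25.7 to 44.8 reads. Genes averaging at least 10 CPM were tested with limma on log2(CPM + 1), and a gene was called at a Benjamini-Hochberg adjusted p under 0.05 over all 7464 genes tested. Of these, 123 were called (1.65%), 35 higher in p63alphaKO (0.469%) and 88 lower (1.18%). Lower genes made up 71.5% of the calls, against 57.5% with TMM factors, 48.1% with upper quartile factors and 61.1% after quantile normalization. The 8 keratinocyte markers, among them Krt5, Krt14, Krt1 and Krt10, summed to between 110792 and 122979 CPM in WT and between 112303 and 120347 CPM in p63alphaKO, so the labelled tissue's own markers were abundant in all libraries. Marker lists of other tissues stood apart between the groups: the summed level of 8 fibroblast markers was 2091 to 4839 CPM in WT against 322 to 678 CPM in p63alphaKO, that of 8 muscle markers 373 to 2190 and 50.3 to 96.7 CPM, and that of 8 erythroid markers 1903 to 3441 and 559 to 1769 CPM. The 8 endothelial markers summed to 18.9 to 61.95 and 3.66 to 8.44 CPM. In the other direction, 8 melanocyte markers summed to 196 to 324 CPM in WT against 339 to 478 CPM in p63alphaKO. Macrophage markers are given below. Their part in the values below was not tested. In such bulk samples, fewer cells of a type and less RNA per cell cannot be told apart.

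The 10 genes did not share a direction. Hmox1 and Txnrd1 were higher in p63alphaKO, and Gclc and Keap1 lower, each without overlap between the groups. Srxn1 and Slc7a11 had higher means in p63alphaKO with overlapping groups, and Nfe2l2 and Gclm were within the spread of the libraries. Nqo1 and Gsr had lower means in p63alphaKO with overlapping groups, at low levels. Of the 10 genes, 8 passed the minimum level, and Nqo1 and Gsr did not. Gclc, at a mean of 13.2 CPM over all libraries, passed it through its WT level (18.7 CPM, against 7.71 CPM in p63alphaKO), so a difference in that direction was favoured by the filter. The same held for Gclm, at means of 12.7 CPM in WT and 9.44 CPM in p63alphaKO. Apart from Hmox1, 0 of the 7 tested genes were called by limma, 0 by edgeR's quasi-likelihood test on the recovered reads, and 1, Txnrd1, by DESeq2 on those reads. Over all 7464 tested genes, edgeR called 82 and DESeq2 317, of which 152 were higher and 165 lower. At an unadjusted limma p under 0.05 there were 4 of the 7 pathway genes, against 15.6% of all tested genes. With Hmox1 counted in, 2 of the 8 genes were higher and 2 lower without overlap between the groups, beside 7.6% and 13.4% of all tested genes, and since Hmox1 was picked on this contrast nothing is read from these counts. The median log2 fold change (p63alphaKO over WT) of the 8 was 0.31, and 0.097 without Hmox1, beside -0.085 for all tested genes.

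**Figure D1:**
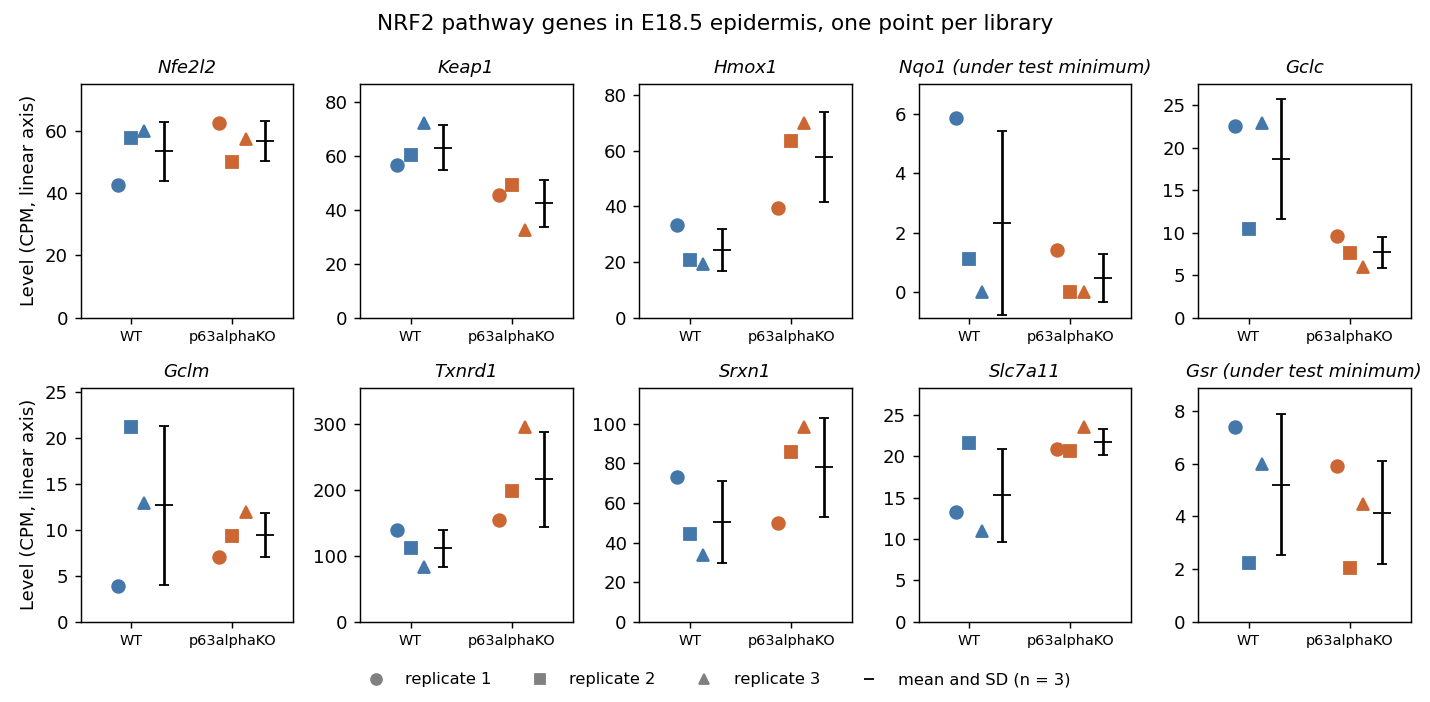
Level of each gene in CPM (linear axes, a separate scale for each gene) in the 3 WT and 3 p63alphaKO libraries; points are libraries and bars the mean and SD. Hmox1 and Txnrd1 have all p63alphaKO points above all WT points, Keap1 and Gclc have them below, and the other 6 genes overlap.

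Hmox1 encodes heme oxygenase 1, the inducible enzyme that opens the heme ring and releases iron, carbon monoxide and biliverdin. Hmox1 (ENSMUSG00000005413) lies on the plus strand of mm10 chromosome 8, from 75093621 to 75100589, and has 1 annotated coding transcript. It was at 33.1, 20.8 and 19.2 CPM in WT replicates 1, 2 and 3 against 39.5, 63.5 and 70.1 CPM in p63alphaKO replicates 1, 2 and 3. These values rest on 61 to 93 reads in WT and 140 to 235 reads in p63alphaKO. All p63alphaKO libraries were above all WT libraries, with WT replicate 1 and p63alphaKO replicate 1 closest to each other. The means were 24.4 ± 7.62 CPM (SD, n = 3) in WT and 57.7 ± 16.1 CPM in p63alphaKO, a ratio of 2.37, and the log2 fold change was 1.21 (SE 0.28). This is the contrast that picked Hmox1, and no test is drawn from it. With 1 library left out, the value lay between 1.05 (without p63alphaKO replicate 3) and 1.46 (without p63alphaKO replicate 1).

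Among the other genes of heme and iron handling there was no call. Hmox2 encodes the constitutive heme oxygenase. It was at 60.8, 44.7 and 91.3 CPM in WT replicates 1, 2 and 3 against 56.8, 69.9 and 104 CPM in p63alphaKO replicates 1, 2 and 3, so the groups overlapped (log2 fold change 0.24, SE 0.28, limma adjusted p = 0.735). Exons of Hmox2 overlap those of Cdip1 on the other strand, and the sources used here do not say whether counting used the strand. Fth1, the heavy chain of the iron store ferritin, had a log2 fold change of 0.055 (SE 0.25, limma adjusted p = 0.950). Its sign depended on single libraries: it was -0.24 without WT replicate 3 and -0.022 without p63alphaKO replicate 1. In the list of 12 heme and iron genes, 10 were tested, 0 were called by limma, edgeR or DESeq2, and 1, the iron exporter gene Slc40a1, had an unadjusted p under 0.05. Slc40a1, chosen for mention after its values were seen, was at 31.95, 31.5 and 44.7 CPM in WT against 18.6, 17.2 and 24.5 CPM in p63alphaKO (log2 fold change -0.81, limma adjusted p = 0.135). The list's median was 0.028.

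Macrophages and red cells are known to hold much of the body's heme oxygenase 1 and globin heme, so their markers are given beside Hmox1. Of 14 macrophage and Langerhans cell markers, 0 reached the mean for testing, and the highest value of any of them in any library was 12.9 CPM. They summed to between 43.8 and 65.2 CPM in WT and between 32.2 and 39.9 CPM in p63alphaKO. Of the 14, 10 had lower and 4 higher means in p63alphaKO, and 11 had overlapping groups. Cd74, the invariant chain of antigen presentation, was higher without overlap, at 0.94 to 1.17 CPM in WT against 3.28 to 4.95 CPM in p63alphaKO, and Ptprc and Tyrobp, genes of leukocytes, were lower without overlap. Ptprc was at 3.12 to 6.61 CPM in WT against 0 to 0.85 CPM in p63alphaKO, and Tyrobp at 1.95 to 4.02 against 0 to 1.69 CPM. Since 3 reads stood for 0.670 to 1.17 CPM, these differences rest on few reads. Cd207, the Langerhans cell lectin, was at 0 in all but WT replicate 3 (0.63 CPM), and Cd163, a macrophage receptor for hemoglobin, at 0 in all but WT replicate 2 (1.12 CPM). The part of these cells in the Hmox1 values was not tested. The 4 tested globin genes were lower in p63alphaKO without overlap, beside 13.4% of all tested genes. Of the 4, 3 were called by limma (Hbb-bs, chosen for mention after its values were seen, log2 fold change -1.51, limma adjusted p = 0.0314), beside 1.18% of all tested genes called lower, while 0 of the 4 were called by edgeR or DESeq2.

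Txnrd1 and Srxn1 encode parts of the thioredoxin arm of the pathway. Txnrd1 is the cytosolic thioredoxin reductase, a selenoprotein that passes electrons from NADPH to thioredoxin, and sulfiredoxin (Srxn1) rescues peroxiredoxins that have been overoxidized. Txnrd1 (chromosome 10, 82833951 to 82897712, plus strand) was at 139, 112 and 82.8 CPM in WT replicates 1, 2 and 3 against 154, 198 and 296 CPM in p63alphaKO replicates 1, 2 and 3. Each p63alphaKO library was again above each WT library, and the step from WT replicate 1 to p63alphaKO replicate 1 was small. The means were 111 ± 28.0 and 216 ± 72.3 CPM (n = 3 each), a ratio of 1.94, and the log2 fold change was 0.93 (SE 0.24), which missed the threshold (limma adjusted p = 0.0669). It passed without WT replicate 1 (1.104, limma adjusted p = 0.0406) and by DESeq2 on recovered reads (1.06, adjusted p = 0.0118), and the adjusted p over 17 other settings went from 0.0118 to 0.329.

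Srxn1 (chromosome 2, 152105516 to 152111376, plus strand) was at 73.3, 44.2 and 33.7 CPM in WT replicates 1, 2 and 3 against 49.97, 85.6 and 98.4 CPM in p63alphaKO replicates 1, 2 and 3. The groups overlapped, since p63alphaKO replicate 1 was below WT replicate 1. The log2 fold change was 0.64 (SE 0.30, limma adjusted p = 0.318), and it lay between 0.39 without WT replicate 3 and 0.94 without WT replicate 1.

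Hmox1, Txnrd1 and Srxn1 ranked the libraries alike. From low to high, Hmox1 and Txnrd1 had the same order of all 6 libraries: WT replicates 3, 2 and 1, then p63alphaKO replicates 1, 2 and 3. The order holds the split between the groups for which Hmox1 was chosen, so it is a description of these libraries. Srxn1 kept it within each group and exchanged only WT replicate 1 and p63alphaKO replicate 1. Of 7463 tested genes other than Hmox1, 49 (0.657%) had the full order, Txnrd1 among them. The order within both groups was shared by 164 (2.2%), Txnrd1 and Srxn1 among them. Genes outside the pathway, such as Lce1a2, Kprp and Asprv1, also had the full order, so it was not particular to NRF2 genes. Keap1 and Gclc ran the other way at the ends of this order, with p63alphaKO replicate 3 lowest and WT replicate 3 highest for both genes.

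**Figure D2:**
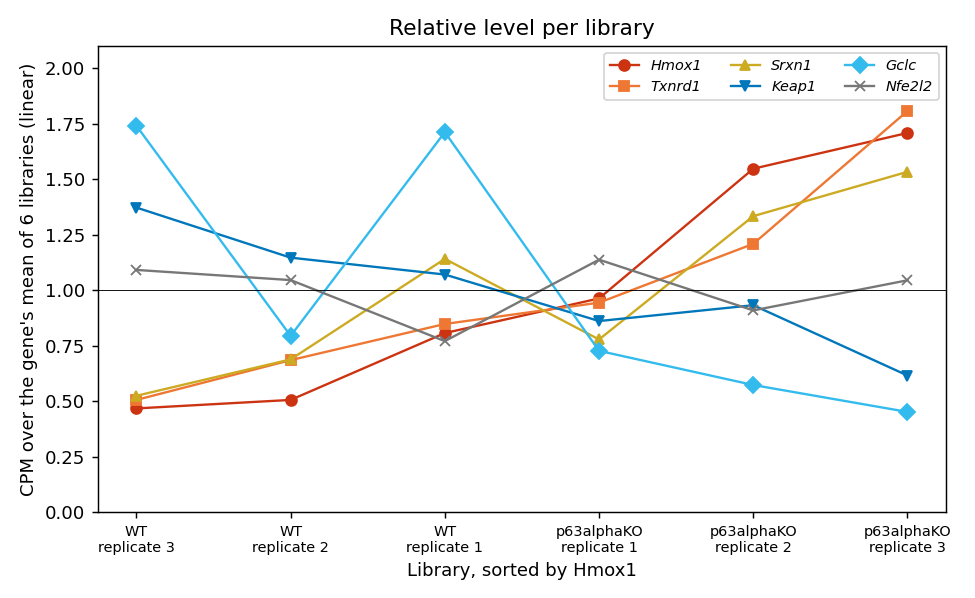
CPM of 6 pathway genes divided by each gene's mean over the 6 libraries (linear axis), with the libraries sorted by Hmox1. Hmox1 and Txnrd1 climb from WT replicate 3 to p63alphaKO replicate 3 and Srxn1 does so apart from 1 exchange, while Keap1 and Gclc are lowest in p63alphaKO replicate 3 and Nfe2l2 shows no such order.

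No gene in the rest of the thioredoxin system was called by limma. Of 16 listed genes 12 were tested, all with negative fold changes on the deposited scale, beside 59.8% of all tested genes. With TMM or upper quartile factors 9 of the 12 were negative, beside 3559 (TMM) and 3313 (upper quartile) of all 7464 tested genes. The median of the 12 was -0.21 as deposited, -0.105 with TMM factors and -0.0748 with upper quartile factors, beside -0.085, 0.018 and 0.048 for all tested genes. None of the 12 was called by limma or edgeR, 1 had an unadjusted limma p under 0.05, and DESeq2 called that gene, Txnip. The peroxiredoxin genes Prdx5 and Prdx1, the members of this list with the highest levels, had log2 fold changes of -0.21 and -0.24 (limma adjusted p = 0.554 and 0.559). Exons of Prdx5 overlap Trmt112 on the other strand. Txnip encodes the protein that binds and inhibits thioredoxin, and was chosen for mention after its values were seen. It was at 177, 79.9 and 159 CPM in WT replicates 1, 2 and 3 against 82.7, 74.6 and 34.9 CPM in p63alphaKO replicates 1, 2 and 3. WT replicate 2 lay among the p63alphaKO libraries (log2 fold change -1.11, SE 0.33, limma adjusted p = 0.0976), and without it the value was -1.47 (limma adjusted p = 0.0311). Exons of Txnip overlap those of the annotated gene Gm15441 on the other strand.

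In glutathione synthesis, Gclc had lower levels in p63alphaKO and Gclm overlapped. Gclc encodes the catalytic subunit and Gclm the modifier subunit of glutamate-cysteine ligase, the enzyme of the limiting step. Gclc (chromosome 9, 77754535 to 77794485, plus strand) was at 22.6, 10.5 and 23.0 CPM in WT replicates 1, 2 and 3 against 9.60, 7.57 and 5.97 CPM in p63alphaKO replicates 1, 2 and 3. All p63alphaKO libraries were below all WT libraries, although WT replicate 2 came within 1 CPM of p63alphaKO replicate 1. The means were 18.7 ± 7.10 and 7.71 ± 1.82 CPM (n = 3 each), 2.42-fold apart, from 178 reads in WT and 80 in p63alphaKO. The log2 fold change was -1.12 (SE 0.41) and was not called (limma adjusted p = 0.196, and 0.0928 to 0.478 over 16 other settings).

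Gclm (chromosome 3, 122245557 to 122270732, plus strand) was at 3.90, 21.2 and 12.9 CPM in WT replicates 1, 2 and 3 against 7.06, 9.32 and 11.9 CPM in p63alphaKO replicates 1, 2 and 3. The WT libraries spanned the whole range, from 10 to 95 reads, and the p63alphaKO libraries lay inside it. Its log2 fold change was -0.16 (SE 0.53, limma adjusted p = 0.925), with a sign set by single libraries (-0.78 without WT replicate 1, 0.31 without WT replicate 2). Exons of Gclm overlap the annotated gene Gm17494 on the other strand.

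Slc7a11 encodes the cystine importer of system xc-, which feeds cysteine to glutathione synthesis and is a target of both NRF2 and the amino acid stress factor ATF4. Slc7a11 (chromosome 3, 49892526 to 50443614, minus strand) was at 13.3, 21.7 and 11.02 CPM in WT replicates 1, 2 and 3 against 20.9, 20.7 and 23.6 CPM in p63alphaKO replicates 1, 2 and 3. WT replicate 2 was as high as the p63alphaKO libraries, which were close to one another. The log2 fold change was 0.53 (SE 0.32, limma adjusted p = 0.459), 0.34 without WT replicate 3 and 0.79 without WT replicate 2. Melanocytes use this importer to make pheomelanin. Their 8 markers summed to 196 to 324 CPM in WT against 339 to 478 CPM in p63alphaKO, most of it from Dct, a melanin enzyme mentioned after its values were seen. Dct was higher without overlap and was called by DESeq2 but not by limma or edgeR (log2 fold change 0.76, limma adjusted p = 0.0978), and Slc45a2, a melanosome transporter, was lower without overlap. Slc45a2 was at 1.79 to 2.34 CPM in WT against 0 to 0.89 CPM in p63alphaKO, few reads in any library. The other 6 markers overlapped, and of the 8, 7 had higher and 1 lower means in p63alphaKO. Their part in the Slc7a11 values was not tested. Of 14 listed ATF4 stress genes, all tested, 7 had positive and 7 negative fold changes, 0 were called by limma, edgeR or DESeq2, 2 had an unadjusted p under 0.05 (1 in each direction), and the median was 0.042. Those 2 genes, Chac1 and Vldlr, are named after their values were seen. Chac1 averaged 8.1 CPM in WT against 16.6 CPM in p63alphaKO, and Vldlr 16.0 against 8.32 CPM. Each passed the minimum of 10 CPM only through its higher group, so the filter favoured both directions. Atf4 itself was at 454 ± 94.2 CPM in WT against 420 ± 44.2 CPM in p63alphaKO (n = 3 each, limma adjusted p = 0.856), and the stress factor gene Atf3 had a log2 fold change of 0.14 (limma adjusted p = 0.836).

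In the wider glutathione lists, lower values were mostly those of transferases. Of 18 genes of glutathione synthesis, turnover and use, 10 were tested, 6 with positive fold changes, 0 called by limma or edgeR and 1 by DESeq2 (Oplah), with a median of 0.060. At an unadjusted limma p under 0.05 there was 1 in each direction, Chac1 and Oplah, each above the minimum level only through its higher group. Ggct and Glrx, for glutathione breakdown and protein deglutathionylation, had log2 fold changes of -0.24 and 0.30 (limma adjusted p = 0.522 and 0.427). Of 21 glutathione transferases, which couple glutathione to electrophiles, 8 were tested. In this family 5 genes were lower in p63alphaKO without overlap, beside 13.4% of all tested genes, all 5 with an unadjusted p under 0.05. The median was -0.49, and -0.38 with TMM factors. None was called by limma or edgeR. DESeq2 called Gsto1 and Gstm2, both lower, beside 165 of all 7464 tested genes that it called lower.

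Gsto1 was at 270, 426 and 282 CPM in WT replicates 1, 2 and 3 against 214, 189 and 171 CPM in p63alphaKO replicates 1, 2 and 3 (log2 fold change -0.74, SE 0.19, limma adjusted p = 0.0669), with all p63alphaKO libraries lower. It passed without WT replicate 1 or WT replicate 3 (limma adjusted p = 0.0446 and 0.0476). Gstm5 had a log2 fold change of -0.42 (limma adjusted p = 0.304), with exons that overlap 4933431E20Rik on the other strand. Gstm2, with the smallest p of the family and mentioned for it, was at 29.6, 35.7 and 38.4 CPM in WT against 15.0, 16.6 and 17.9 CPM in p63alphaKO (log2 fold change -1.02, limma adjusted p = 0.0597). Gstm1, Gstm2 and Gstm5 belong to 1 gene family, and how reads were divided between them was not measured here, so their single values are uncertain. The fibroblast, muscle and erythroid markers were lower in the same libraries, and their part in these values was not tested.

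Of the sensor pair, Keap1 had lower levels in p63alphaKO and Nfe2l2 overlapped. Nfe2l2 (chromosome 2, 75675513 to 75704641, minus strand) was at 42.5, 57.6 and 60.1 CPM in WT replicates 1, 2 and 3 against 62.7, 50.1 and 57.6 CPM in p63alphaKO replicates 1, 2 and 3. The groups lay on top of each other (log2 fold change 0.097, SE 0.22, limma adjusted p = 0.883). Keap1 (chromosome 9, 21229730 to 21239361, minus strand) was at 56.5, 60.5 and 72.4 CPM in WT replicates 1, 2 and 3 against 45.5, 49.2 and 32.5 CPM in p63alphaKO replicates 1, 2 and 3. All p63alphaKO libraries were below all WT libraries, at means of 42.4 ± 8.76 and 63.1 ± 8.27 CPM (n = 3 each). Its log2 fold change of -0.58 (SE 0.22) was not called (limma adjusted p = 0.222, and 0.178 to 0.603 over 17 other settings), and it was -0.47 with TMM factors. Exons of Keap1 overlap the annotated gene Gm16754 on the other strand.

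Among 12 other genes of NRF2 control, 11 were tested and 0 were called by limma, edgeR or DESeq2, with 1 at an unadjusted p under 0.05 and a median of 0.093. Cul3, the cullin of the KEAP1 ligase, was at 173 ± 12.8 CPM in WT against 184 ± 11.5 CPM in p63alphaKO (n = 3 each, limma adjusted p = 0.844). Gsk3b, a kinase that marks NRF2 for a second route of destruction, had a log2 fold change of -0.15 (limma adjusted p = 0.747). Bach1 encodes the heme-sensitive repressor of Hmox1, and was chosen for mention for that role after its values were seen. It was at 115, 136 and 69.9 CPM in WT against 119, 161 and 163 CPM in p63alphaKO, overlapping between the groups (log2 fold change 0.50, limma adjusted p = 0.328). The small MAF gene Maff, the gene with an unadjusted p under 0.05, was at 62.0, 63.9 and 19.8 CPM in WT against 86.1, 73.4 and 76.95 CPM in p63alphaKO (log2 fold change 0.86, limma adjusted p = 0.237). WT replicate 3 set most of its size, and without it the value was 0.32.

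Nqo1 and Gsr were too low to test. Nqo1, the quinone reductase that is often used as the standard readout of NRF2, was at 5.84, 1.12 and 0 CPM (15, 5 and 0 reads) in WT replicates 1, 2 and 3, against 1.41, 0 and 0 CPM (5, 0 and 0 reads) in p63alphaKO replicates 1, 2 and 3. A count of 0 allows up to 0.944 CPM in WT replicate 3 and 0.874 and 0.895 CPM in p63alphaKO replicates 2 and 3. A difference between the groups was not detectable at this depth. Gsr, the reductase that restores glutathione, was at 7.40, 2.23 and 5.98 CPM in WT against 5.93, 2.04 and 4.47 CPM in p63alphaKO replicates 1, 2 and 3, from 7 to 21 reads per library, and the groups overlapped throughout. The nearest gene to the minimum from above was Gclm, at a mean of 11.1 CPM, against 4.68 CPM for Gsr.

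Enzymes that clear superoxide and peroxide, and other detoxifying enzymes, gave no call. Of Sod1, Sod2, Sod3 and Cat, all 4 had negative fold changes on the deposited scale and 3 with TMM factors (median -0.33 and -0.23), and 1, Cat, had an unadjusted p under 0.05. Sod1, the cytosolic superoxide dismutase, was at 88.9 ± 5.06 CPM in WT against 73.3 ± 12.99 CPM in p63alphaKO (n = 3 each, limma adjusted p = 0.528), and Sod3, the secreted one, at 69.0 ± 15.4 and 67.1 ± 18.6 CPM (limma adjusted p = 0.954). Of 19 xenobiotic enzymes and exporters 5 were tested, 3 with positive fold changes, and 0 had an unadjusted p under 0.05. Akr1a1 and Ptgr1, reductases of aldehydes and of lipid-derived enones, had log2 fold changes of -0.15 and 0.24 (limma adjusted p = 0.764 and 0.549). Over the 8 lists together, 71 genes other than the 10 were tested: 28 had positive and 43 negative fold changes. Limma and edgeR called 0 of them, and 12 had an unadjusted limma p under 0.05, 2 higher and 10 lower. DESeq2 called 4 (Gstm2, Gsto1, Oplah and Txnip, all lower), beside 317 of all 7464 tested genes, 165 of those lower. The median of the 71 was -0.095, close to that of all tested genes. Of the 12 genes with an unadjusted limma p under 0.05, Chac1, Oplah and Vldlr passed the minimum level only through their higher group.

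**Figure D3:**
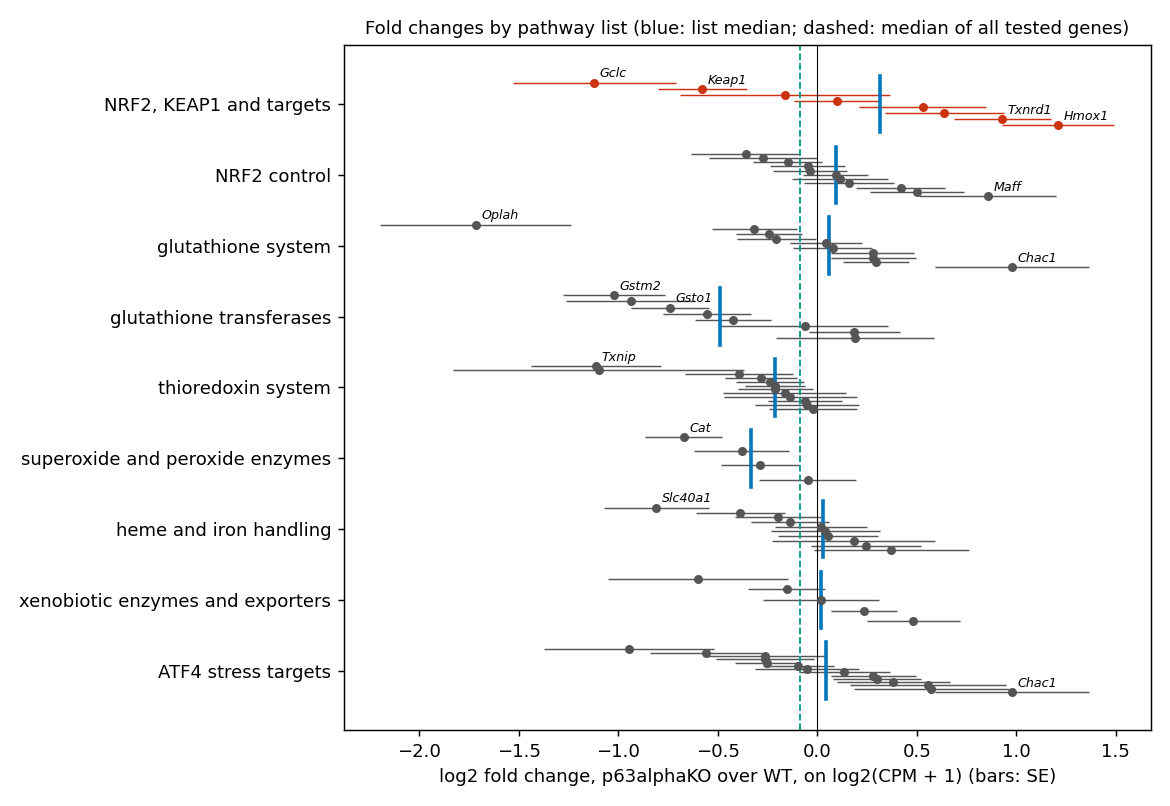
Log2 fold change (p63alphaKO over WT, on log2(CPM + 1)) of each tested gene with its SE, by list; the blue bar is the list median and the dashed line the median of all tested genes, -0.085. The NRF2 genes run from Gclc at -1.12 to Hmox1 at 1.21, and 5 of the 8 glutathione transferases form the lower end of their list.

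The promoter sequences of 4 genes are shown because they carry the class of element NRF2 is known to bind and because their genes did not share a direction: Txnrd1, Srxn1 and Slc7a11 had positive fold changes and Gclm had a small negative one. Each is the 250 bases before a start site in RefSeq (GRCm38.p6), 5′ to 3′ on the gene's strand, with matches in capitals on either strand to the strict core of the antioxidant response element (TGACNNNGC), its looser form (TGANNNNGC, which includes the strict one), the AP-1 site (TGANTCA) or the composite element bound by ATF4 with C/EBP proteins (TGATGCAA). Matches that overlap run together in capitals. The Srxn1 window is at chr2:152105274-152105523 (plus strand), the Txnrd1 window, the second of 3 for that gene, at chr10:82858956-82859205 (plus strand), the Slc7a11 window at chr3:50443614-50443863 (minus strand) and the Gclm window at chr3:122245307-122245556 (plus strand).
Srxn1: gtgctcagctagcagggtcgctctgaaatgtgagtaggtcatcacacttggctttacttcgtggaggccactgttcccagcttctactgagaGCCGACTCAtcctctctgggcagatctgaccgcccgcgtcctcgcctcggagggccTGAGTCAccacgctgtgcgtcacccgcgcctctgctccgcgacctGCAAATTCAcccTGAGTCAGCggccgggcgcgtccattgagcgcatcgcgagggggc
Txnrd1: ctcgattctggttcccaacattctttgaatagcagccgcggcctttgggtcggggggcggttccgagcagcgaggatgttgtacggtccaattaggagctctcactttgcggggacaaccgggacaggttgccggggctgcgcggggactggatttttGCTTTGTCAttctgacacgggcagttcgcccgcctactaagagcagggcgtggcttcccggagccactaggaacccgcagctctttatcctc
Slc7a11: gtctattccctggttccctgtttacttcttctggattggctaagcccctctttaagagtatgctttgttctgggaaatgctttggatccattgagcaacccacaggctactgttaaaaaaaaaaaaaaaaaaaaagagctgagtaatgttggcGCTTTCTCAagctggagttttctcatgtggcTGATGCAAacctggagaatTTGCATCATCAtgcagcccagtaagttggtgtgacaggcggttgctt
Gclm: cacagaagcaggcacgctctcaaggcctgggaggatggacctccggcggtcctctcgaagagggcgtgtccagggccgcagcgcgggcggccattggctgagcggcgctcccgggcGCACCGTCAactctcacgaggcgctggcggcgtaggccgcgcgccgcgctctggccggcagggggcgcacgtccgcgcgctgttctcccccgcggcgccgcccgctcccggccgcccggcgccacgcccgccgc

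In Srxn1, the AP-1 letters TGAGTCA occurred 2 times, and the copy starting 45 bases before the start site continued into a loose element, TGAGTCAGC. Slc7a11 held the ATF4 letters in both orientations, starting 66 and 47 bases before its start site. Txnrd1 and Gclm each held 1 strict element on the reverse strand, starting 92 and 134 bases before the start site. Of the 10 genes, 7 had windows in the RefSeq table, 9 windows in all, and Hmox1, Gclc and Gsr had none. The strict element was in 3 of the 9 windows and in 10.2% of all 32851 windows, and the loose one in 7 of 9 and in 35.2%. The AP-1 site was in 1 of 9 and in 6.75%, and the ATF4 element in 1 of 9 and in 0.791%. Nfe2l2 and Gclm, whose levels overlapped between the groups, held the strict element as Txnrd1 did. A match is a description of letters and not evidence of binding.

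The genes whose pattern over the 6 libraries was most like that of Hmox1, by Pearson's r of log2(CPM + 1), were Abcg1, a cholesterol exporter (r = 0.990), Lrrfip1 (0.989), Deptor, an inhibitor of mTOR (0.985), Cask, a scaffold protein gene (0.983), and Crybg2 (0.980). These are descriptions over 6 libraries that share the 2 groups, and since Hmox1 was picked for its group difference, genes with the same difference come first. Xist and the Y-linked genes Ddx3y, Eif2s3y, Kdm5d and Uty were left out of this ranking. Abcg1 was at 8.57, 4.24 and 3.78 CPM in WT against 8.75, 15.4 and 21.8 CPM in p63alphaKO replicates 1, 2 and 3. With means of 5.53 CPM in WT and 15.3 CPM in p63alphaKO, it passed the minimum of 10 CPM only through p63alphaKO. The filter thus favoured its direction. Among the NRF2 genes r with Hmox1 was 0.956 for Txnrd1, 0.906 for Srxn1, 0.598 for Slc7a11, -0.177 for Nfe2l2, -0.298 for Gclm, -0.736 for Gclc and -0.874 for Keap1.

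Over all tested genes the median log2 fold change, -0.085 as deposited, was 0.018 under TMM factors and 0.048 under upper quartile factors. With TMM factors Hmox1 was at 1.31, Txnrd1 at 1.04, Srxn1 at 0.74, Slc7a11 at 0.63 and Gclc at -1.02. None of the 8 tested genes changed sign under the 3 rescalings.

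**Figure D4:**
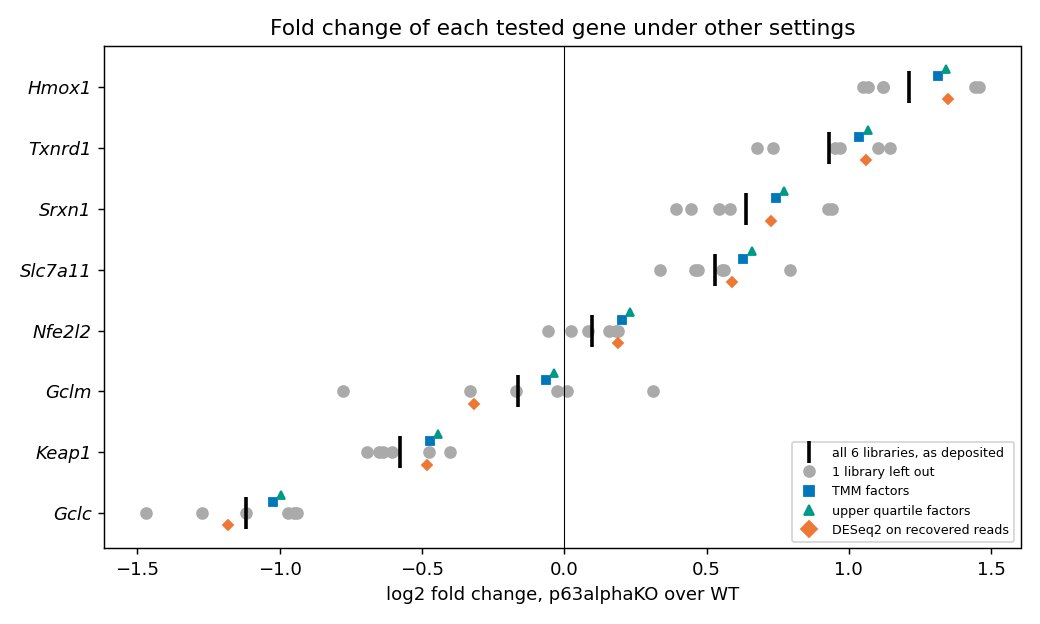
Log2 fold change of the 8 tested genes with all libraries as deposited (black bar), with 1 library left out (grey), with TMM or upper quartile factors and with DESeq2 on recovered reads. Hmox1, Txnrd1, Srxn1 and Slc7a11 stay above 0 and Keap1 and Gclc below it at all points shown, while Nfe2l2 and Gclm have points on both sides.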

How the data were processed

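Epidermis parted from dermis with Dispase was profiled by 3' digital mRNA sequencing, per the labels' protocols, in 3 WT and 3 p63alphaKO libraries, grouped by sample title. STAR, HTSeq and mm10 are named in the submitters' processing notes, without versions; the sources used here do not give the annotation or strand setting. The authors deposited CPM, whose columns sum to between 999157 and 999401. Values were whole multiples of 1 read within 0.0055 CPM for at least 99.99% of genes, which gave reads per library. Limits from 3 reads, 0.670 to 1.17 CPM, cover counting error only.

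Log2(CPM + 1) was tested with limma-trend (limma 3.58.1, R 4.3.3), two-sided, genotype only, over the 7464 genes averaging at least 10 CPM. Fold changes on this scale understate changes of low genes. On recovered reads, edgeR 4.0.16 called 82 genes and DESeq2 1.42.0 called 317; both were added after seeing the data. Other alternatives were pseudocounts, filters, scalings, a replicate block and leaving out each library. An exact permutation test of 3 against 3 cannot go below 0.1. Steps were tested on simulated data.

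The genes and lists were chosen with earlier results of these data known. Named were the 10 genes, the 2 tested genes with the highest level in each of 8 pathway lists, any called there (at most 4), and the 5 genes most like Hmox1; others are said to have been chosen later. Listed genes not found in the table were not analysed here. Positions are from GENCODE mouse release 21 (mm10), 1-based; promoters are from RefSeq.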

Additional observations from a re-analysis of the deposited data

How the results depend on the processing

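The count of changed genes (123) was 36 with a minimum mean of 50 CPM, 41 by limma without the mean-variance trend, 317 by DESeq2, and 37 to 186 with 1 library left out: 186 without WT replicate 1 and 46, 67 and 37 without p63alphaKO replicates 1, 2 and 3. Genes called among the 7 tested pathway genes other than Hmox1 numbered 0, and 1 by DESeq2, and 0 to 1 with 1 library left out (Txnrd1 without WT replicate 1). Genes called in the wider lists numbered 0, and 4 by DESeq2, and 0 to 1 with 1 library left out (Gsto1 without WT replicate 1 or 3, Txnip without WT replicate 2). The median log2 fold change of the pathway genes, Hmox1 included, was -0.034 with no filter, where Nqo1 and Gsr enter, and 0.20 to 0.45 with 1 library left out. Since Hmox1 was picked on this contrast, nothing is read from these medians. In the main fit the median was 0.31 with Hmox1 and 0.097 without it. Hmox1 stayed between 1.05 and 1.46 over 16 settings, and a minimum of 50 CPM left it, Gclc, Gclm and Slc7a11 out.

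Signs turned in small values. Sod3 (-0.049) was 0.056 with TMM factors, 0.085 with upper quartile factors, 0.020 after quantile normalization, 0.047 by edgeR and 0.066 by DESeq2, and Atf4 (-0.095) was 0.012 and 0.041 with TMM and upper quartile factors. With 1 library left out, Nfe2l2 ran from -0.057 to 0.19, Gclm from -0.78 to 0.31, Sod3 from -0.25 to 0.13, Fth1 from -0.24 to 0.40, Akr1a1 from -0.33 to 0.021, Atf3 from -0.18 to 0.32 and Atf4 from -0.26 to 0.047. The cause was not tested. With the replicate block, 127 genes were called and 0 of the 7. Deviations of same-numbered libraries had correlations of -0.0234, 0.066 and -0.108, and the libraries did not all correlate best with their own number. The labels do not say what the numbers mark. With 3 libraries per group, these values cannot decide whether the numbers pair the samples. Depth limits Nqo1, Gsr, Gclc and Gclm most.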

Other observations

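Oplah, the enzyme that returns 5-oxoproline to glutamate in the glutathione cycle, had the lowest fold change in the wider lists. Oplah, Chac1 and Cat were chosen for mention after their values were seen. Oplah was at 17.5, 9.38 and 22.7 CPM in WT replicates 1, 2 and 3 against 4.52, 4.08 and 3.58 CPM in p63alphaKO replicates 1, 2 and 3, a log2 fold change of -1.72 (SE 0.48, limma adjusted p = 0.0819). Its exons overlap Exosc4 and Smpd5 on the other strand. Chac1, an enzyme that degrades glutathione and an ATF4 target, was at 9.35, 9.60 and 5.35 CPM in WT against 14.1, 16.0 and 19.7 CPM in p63alphaKO (log2 fold change 0.98, limma adjusted p = 0.230). Cat, encoding catalase, was at 77.2, 77.5 and 85.3 CPM in WT against 50.3, 54.5 and 45.0 CPM in p63alphaKO (log2 fold change -0.67, limma adjusted p = 0.0915). Of these 3 genes, 0 were called by limma or edgeR and 1, Oplah, by DESeq2. Oplah passed the minimum mean of 10 CPM only through WT, and Chac1 only through p63alphaKO, so the filter favoured the directions given here.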
